A study of Mus musculus with 24 samples.

Results

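The genes described here are 35 mouse genes of protein folding in the endoplasmic reticulum and of the unfolded protein response, measured in kidney. They were taken by symbol from a list of chaperones, disulfide isomerases, stress sensors, transcription factors, degradation factors and translocation channel subunits, and were kept where the mean over all libraries was at least 10 normalized counts. All 35 were found among 56748 gene identifiers, and all 35 passed that minimum, as did 17333 genes in all. The endoplasmic reticulum is the compartment in which secreted and membrane proteins are threaded through a channel, folded by chaperones, joined by disulfide bonds and checked by sugar-binding lectins, and from which misfolded chains are returned to the cytosol for destruction. When unfolded chains build up, the membrane sensors IRE1 (gene Ern1), PERK (Eif2ak3) and ATF6 (Atf6) act through the transcription factors XBP1, ATF4, CHOP (Ddit3) and cleaved ATF6, which switch on genes for chaperones, degradation and, under prolonged stress, cell death. Kidney tubule cells make large amounts of membrane transporters and of secreted proteins such as uromodulin, all of which pass through this compartment.

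The study asked how kidney RNA differs between the active and the inactive period of the day. Poly A RNA of mouse kidney, 100 ng per library, was sequenced in 24 libraries from males and females collected in the middle of either period. Each sex had 6 libraries of the active and 6 of the inactive period, which makes 4 groups, and the labels give no treatment beside the period. The sources used here give no strain, age, genotype, lighting or clock hour. Nor is it stated that each library came from its own animal, so the spread between libraries may be partly technical and p-values measure that spread only. Levels are normalized counts, gene counts scaled by the authors with 1 size factor for each library. The reads recovered from them amounted to 31 to 39.3 M. The clock gene Arntl separated the periods without overlap in both sexes, from 404.6 to 1336 in the 12 active and from 36.2 to 164 in the 12 inactive libraries. The defining markers of kidney were abundant in every library (Lrp2 of the proximal tubule at 68184 to 106664, Umod of the thick ascending limb at 30295 to 58178). Of 6 adrenal markers, the enzymes Cyp11b1 and Cyp11b2 were at 0 in all libraries. Star was at 132 to 252, and Mc2r, Hsd3b1 and Cyp21a1 reached 16.9, 9.65 and 4.83. Fat markers varied widely between libraries, with Adipoq at 4.42 to 522 and Plin1 at 2.21 to 307. The part of such tissue in the members' values was not tested.

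A regulatory sequence known from these genes is the endoplasmic reticulum stress response element, ERSE, which XBP1 and ATF6 are known to bind together with the CCAAT-binding factor NF-Y. Its letters, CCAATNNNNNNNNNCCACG, were searched on both strands in the RefSeq promoter windows of build GRCm38.p6, from 250 bases before to 50 bases after each annotated start. The table held promoters for 30 of the 35 members and none for Atf6, Derl1, Hyou1, Manf and Sec61a1. The element was present in 9 of the 30 member genes (9 of 33 promoters, 27.3%), and in 39 of all 32851 promoters (0.119%). These 9 sequences are shown because they carry this motif, which the other member genes searched did not hold. Members were listed by function and not by the motif. The element is known from genes of this kind, so its share among the members is not independent of that choice. Each is given 5′ to 3′ on the strand of the gene, with 15 flanking bases, the element in capitals and coordinates of GRCm38.p6.
Hspa5 (chr2:34772010-34772058, plus strand): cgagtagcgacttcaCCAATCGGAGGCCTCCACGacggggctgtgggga
Hsp90b1 (chr10:86705518-86705671, minus strand): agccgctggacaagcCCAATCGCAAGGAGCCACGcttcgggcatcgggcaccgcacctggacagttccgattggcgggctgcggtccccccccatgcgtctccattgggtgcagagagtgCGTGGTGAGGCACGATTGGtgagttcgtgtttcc
Dnajc3 (chr14:118937812-118937860, plus strand): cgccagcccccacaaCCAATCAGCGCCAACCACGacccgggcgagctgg
Creld2 (chr15:88819505-88819553, plus strand): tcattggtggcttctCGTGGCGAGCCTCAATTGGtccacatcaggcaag
Pdia6 (chr12:17266476-17266524, plus strand): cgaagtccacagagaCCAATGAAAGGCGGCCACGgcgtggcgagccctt
Calr (chr8:84847060-84847108, minus strand): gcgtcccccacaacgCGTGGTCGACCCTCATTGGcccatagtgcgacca
Canx (chr11:50325785-50325833, minus strand): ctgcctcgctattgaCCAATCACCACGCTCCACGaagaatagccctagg
Syvn1 (chr19:6046517-6046565, plus strand): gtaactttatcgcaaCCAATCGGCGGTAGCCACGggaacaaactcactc
Derl3 (chr10:75893227-75893275, plus strand): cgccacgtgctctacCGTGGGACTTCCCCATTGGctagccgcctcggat

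In Hspa5, Dnajc3, Pdia6, Canx and Syvn1 the element lay on the strand of the gene, and in Creld2, Calr and Derl3 on the opposite strand, where it reads CGTGG before and ATTGG after the spacer of 9 bases. Hsp90b1 held 2 copies, 1 on each strand. Creld2 shares its element with Alg12, a mannosyltransferase of the endoplasmic reticulum, because the starts of both genes lie 328 bases apart on opposite strands and their promoter windows overlap by 173 bases. A related element, ERSE-II (ATTGGNCCACG, both strands), was found in 2 of the 30 member genes and in 12 of all promoters (0.0365%). In Herpud1 it lay from -52 to -42 before the start and in Dnajb11 from 7 to 17 after it. The Herpud1 sequence is shown because this gene, unlike those above, was not called in either sex.
Herpud1 (chr8:94386362-94386402, plus strand): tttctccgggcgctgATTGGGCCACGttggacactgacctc

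Of the other motifs searched on both strands, the UPRE core TGACGTGG was found in 1 member gene, Txndc5, against 0.676% of all promoters. The E-box CACGTG, a letter sequence known to be bound by clock factors, was found in 6 of the 30 (Calr, Derl3, Dnajb9, Selenos, Ssr1 and Txndc5) against 7.15% of all promoters. The D-box TTATGNAA was found in 2 of them against 3.39%, and the CARE element TGATGNAAN, known from ATF4 targets, in 3 against 3.95%. None of these matches overlapped an ERSE. A match describes letters in a window and was not measured as a bound site.

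**Figure D1:**
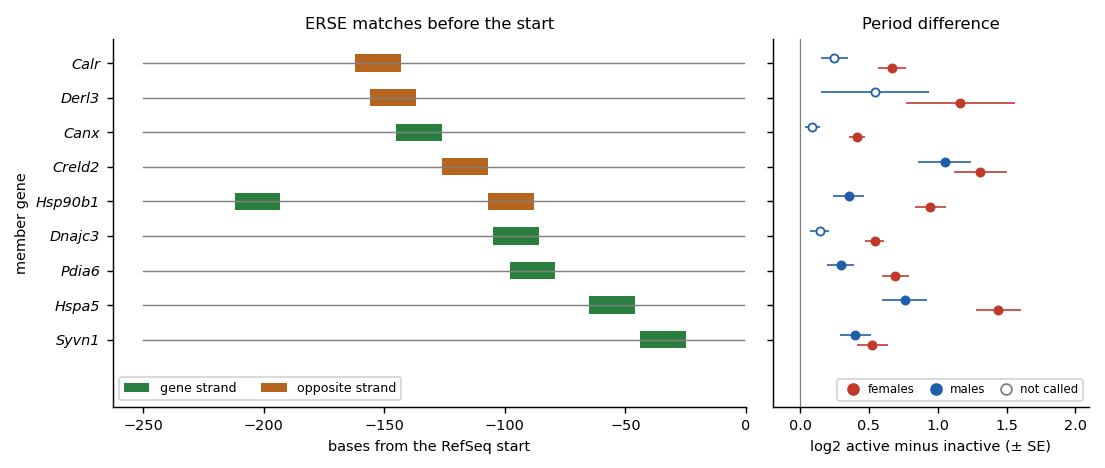
ERSE matches of 9 member genes, plotted by distance in bases from the RefSeq start (left; green on the strand of the gene, brown on the opposite strand), beside each gene's log2 difference between the active and the inactive period ± SE (right; red females, blue males, open circles not called). All 9 female points are filled and lie to the right of 0, and 5 of 9 male points are filled.

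Per kb of exon, the members spanned from abundant chaperones to rare regulators. The lectin-like chaperone Calr was highest with 10237 normalized counts per kb averaged over all 24 libraries, followed by the disulfide isomerases P4hb at 8649 and Pdia3 at 7928 and by the chaperone Hspa5 at 7148. The order below Calr differed between the groups, since in active females Hspa5 at 10504 per kb stood above Pdia3 at 9134 and P4hb at 7833, while in both inactive groups it stood below them. The sensors were far lower per kb, with Atf6 at 227, Eif2ak3 at 192 and Ern1 at 106. At the bottom of this order stood the degradation factor Derl3 at 13.3 and the pseudokinase Trib3 at 13.0, both of which are near the minimum for testing and have wide spreads.

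In the active period, 25 of the 35 members were higher in females and 15 in males, against 7.97% and 8.43% of all genes tested. Members were chosen with earlier results of these data known, so comparisons with all genes are not independent of that choice. No member was lower in either sex by limma, against 6.98% of all genes in females and 6.95% in males, and none was lower at an unadjusted p under 0.05 or by edgeR or DESeq2 on the recovered reads. The median log2 difference of the members, active minus inactive, was 0.39 in females and 0.19 in males, against -0.00 and 0.01 over all genes. The libraries of the periods did not overlap for 18 members in females (4.40% of all genes were separated in this direction) and for 4 in males (2.28%), which were Hspa5, Hyou1, Manf and Creld2. In both sexes 13 members were called higher (2.68% of all genes). In whole kidney, more RNA per cell and more cells of a type cannot be told apart. Among the cell type lists, the summed level of 5 markers of the thick ascending limb and distal tubule was 181423 to 197051 in active and 156433 to 177919 in inactive females, with 1 of the 5 called higher, and 117217 to 131160 against 116638 to 141915 in males. The sum of 8 proximal tubule markers overlapped between periods in females, at 227334 to 288589 and 263075 to 296711, with 1 of the 8 called lower in the active period. In males this sum was 321291 to 366695 in active and 297653 to 325317 in inactive libraries, with 3 of the 8 called higher, and in the test between the sexes 2 of the 8 had a higher active minus inactive difference in males. Of 6 podocyte and endothelial markers, 2 were called higher in active females, and 1 higher and 1 lower in active males. Of 6 collecting duct markers, 1 was higher and 2 lower in active females, and 1 was higher in active males. The part of these shifts in the members' differences was not tested.

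**Figure D2:**
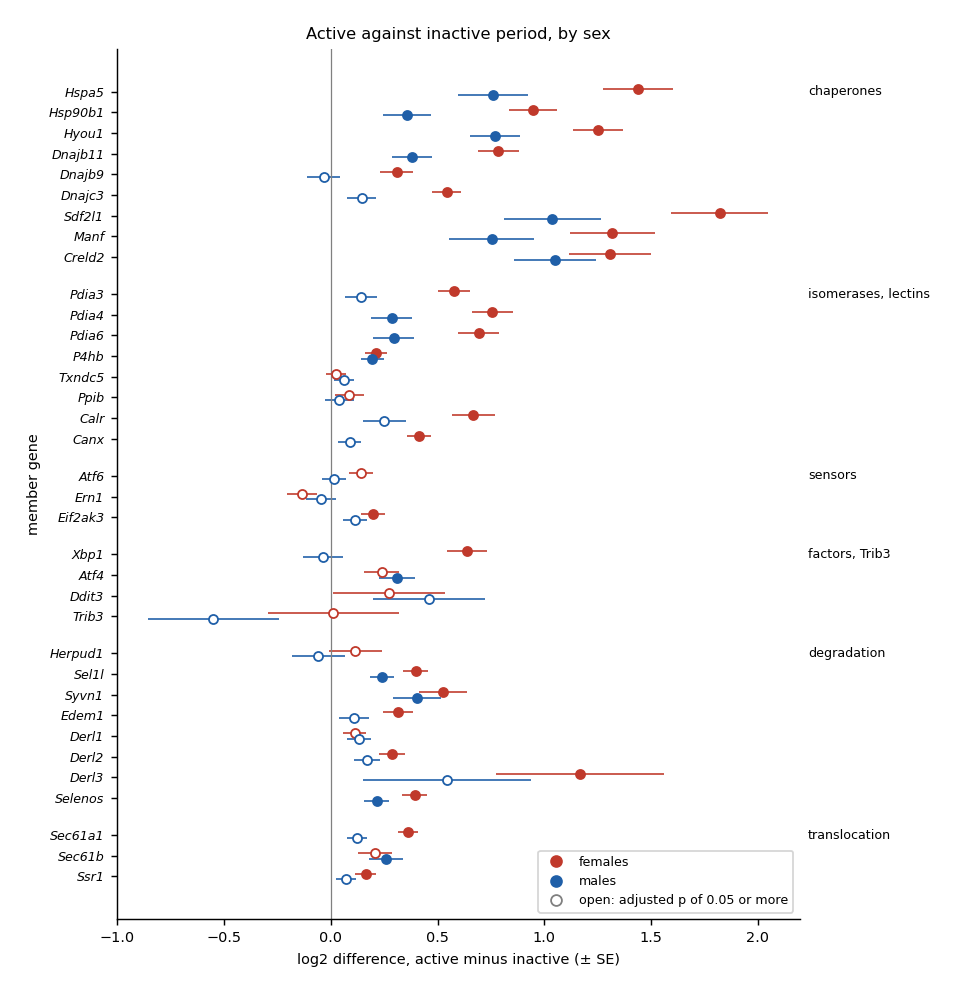
Log2 difference between the active and the inactive period ± SE for each of the 35 members, grouped by role (red females, blue males; filled circles called at an adjusted p under 0.05 by limma, open circles not). Sdf2l1, Hspa5, Manf, Creld2 and Hyou1 lie furthest to the right in females, and the sensors and Trib3 lie near or left of 0.

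All 9 chaperones and co-chaperones were higher in active females and 7 of 9 in active males, with medians of the log2 difference of 1.25 and 0.75. Hspa5 encodes BiP, the HSP70 chaperone of the compartment that also holds the sensors inactive. In females Hspa5 was at 36660.1 to 49173 (median 45506) normalized counts in the active and 12039 to 26679 (median 14937) in the inactive libraries. In males Hspa5 was at 28727 to 49100.5 (median 33978) and 18772 to 24754 (median 21560.4). The periods did not overlap in either sex, and the inactive female range was widened by 1 library at its upper end. The log2 difference was 1.44 ± 0.16, adjusted p = 3.11e-06 in females and 0.76 ± 0.16, adjusted p = 0.00397 in males, or 2.71-fold and 1.70-fold. Hyou1, the exchange factor that recharges BiP, was at 4669 to 6282 (median 5645) against 1999.6 to 3303 (median 2135) in females and at 3973 to 6192 (median 4383) against 2415 to 3039.6 (median 2749) in males, again without overlap.

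Sdf2l1, a small lumenal protein that works with BiP and its co-chaperones, had the largest difference of the members in females, 1.82 ± 0.23, adjusted p = 6.05e-06, or 3.53-fold. Active female libraries held 602 to 1015 (median 815) normalized counts of Sdf2l1 and inactive ones 173 to 336 (median 217). Active males held 206 to 741 (median 296) and inactive males 142 to 228 (median 161), so that the female periods were separate and the male ones overlapped. The male difference for Sdf2l1 was 1.04 ± 0.23, adjusted p = 0.00411. Creld2, a secreted chaperone-like protein, was the member with the largest difference in males, 1.05 ± 0.19, adjusted p = 0.00104, or 2.07-fold. Its levels were 1163 to 2613 (median 1604) in active and 698 to 1092 (median 808) in inactive males, and 1360.0 to 1912 (median 1807) and 551 to 1207 (median 640.2) in active and inactive females, where the difference was 1.31 ± 0.19, adjusted p = 6.31e-05. Manf, a secreted neurotrophic factor of the same compartment, differed by 1.32 ± 0.20, adjusted p = 9.26e-05 in females and 0.75 ± 0.20, adjusted p = 0.0143 in males.

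Hsp90b1, the HSP90 chaperone of the compartment, was at 23037 to 29886 (median 27143) in active and 10736 to 16652 (median 14211) in inactive females (0.95 ± 0.11, adjusted p = 2.73e-06). In males Hsp90b1 was at 15214 to 23856 (median 17859.9) and 13979 to 16341 (median 14298), ranges that overlapped, with 0.35 ± 0.11, adjusted p = 0.0346. The male call of Hsp90b1 held in 18 of 24 fits that each left out 1 library, and was lost with no filter on low values (adjusted p = 0.0876). Dnajb11, a BiP co-chaperone, was at 4456 to 5441 (median 5258) against 2547 to 3665 (median 2966) in females (0.78 ± 0.10, adjusted p = 2.39e-06). Male levels of Dnajb11 were 4652 to 7578 (median 5367) and 3895 to 4681 (median 4389.6) (0.38 ± 0.10, adjusted p = 0.0088). The female periods of Dnajb11 were separate and the male ones overlapped. Dnajc3, a co-chaperone that also inhibits PERK, was at 8922 to 11714 (median 10304) against 6071 to 8047 (median 7161) in females (0.54 ± 0.07, adjusted p = 1.65e-06). In males Dnajc3 was at 7578 to 8947 (median 8641) against 6961 to 8502 (median 7639.6), with 0.14 ± 0.07, adjusted p = 0.157, which did not pass. Dnajb9, a co-chaperone that hands IRE1 to BiP, differed by 0.31 ± 0.08, adjusted p = 0.00529 in females and -0.03 ± 0.08, adjusted p = 0.81 in males.

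**Figure D3:**
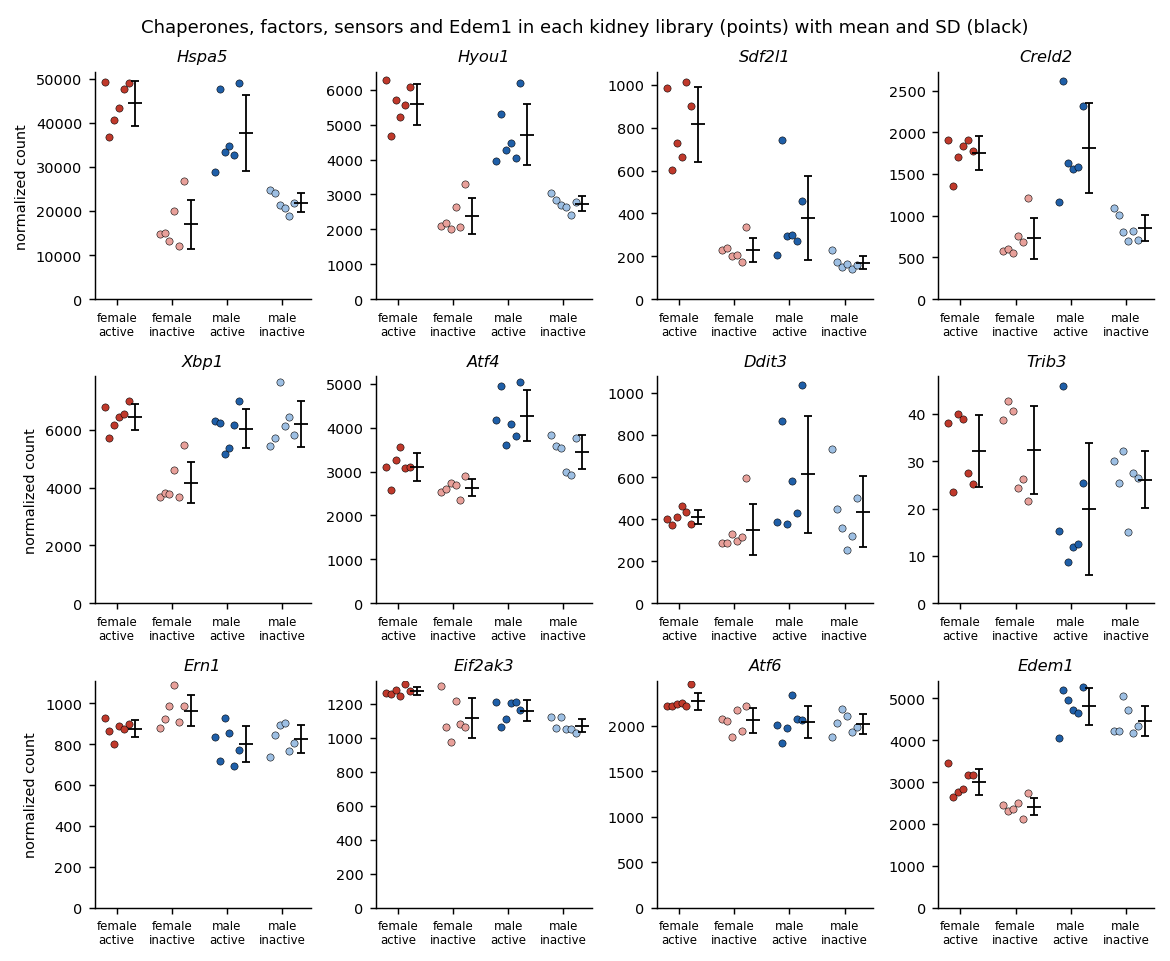
Normalized counts of 12 members in each library (points), with the mean and SD of 6 libraries (black), by sex and period; each axis starts at 0. Hspa5, Hyou1 and Creld2 are high in active libraries of both sexes, Xbp1 has its lowest mean in inactive females, and Edem1 is high in both male groups.

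Of the 8 isomerases and lectins, 6 were higher in active females and 3 in active males. Pdia3, the isomerase that works with calnexin and calreticulin on sugar-bearing proteins, was at 25773 to 31324 (median 28563) in active and 16359 to 20961 (median 19997) in inactive females, which did not overlap (0.58 ± 0.08, adjusted p = 3.03e-06). In males its ranges were 23022 to 34022 (median 25484) and 23721 to 25449 (median 24343), which overlapped (0.14 ± 0.08, adjusted p = 0.207). The isomerases Pdia4 and Pdia6 differed by 0.76 ± 0.10, adjusted p = 3.66e-06 and by 0.69 ± 0.10, adjusted p = 1.49e-05 in females. Their male differences were smaller, 0.28 ± 0.10, adjusted p = 0.0429 and 0.29 ± 0.10, adjusted p = 0.039, and held in 14 and 17 of the 24 fits without 1 library; both were lost with no filter on low values (adjusted p = 0.0898 and 0.0944) and with a plain variance prior (0.0656 and 0.0594). P4hb, the classical disulfide isomerase, was 1 of the few members with nearly equal differences in the sexes, 0.21 ± 0.05, adjusted p = 0.00518 in females and 0.19 ± 0.05, adjusted p = 0.0112 in males. P4hb was at 20878 to 23828 (median 22577) against 17611 to 20556 (median 19470.2) in females and at 26802 to 33776 (median 30499) against 25792 to 27505 (median 26611) in males. Only the female ranges were separate.

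The membrane lectin Canx, calnexin, was at 21446 to 25727 (median 24152) in active and 16079.5 to 19903 (median 18296) in inactive females, separate ranges that differed by 0.41 ± 0.06, adjusted p = 3.61e-06. In males Canx was at 20720.0 to 24323 (median 22565) and 20279.8 to 22281 (median 21319), with 0.09 ± 0.06, adjusted p = 0.293. Calr, its soluble counterpart, differed by 0.67 ± 0.10, adjusted p = 4.92e-05 in females and by 0.25 ± 0.10, adjusted p = 0.0952 in males. The remaining members of this role did not pass in either sex. Txndc5, another disulfide isomerase, was at 3408 to 3909 (median 3639) against 3322 to 4091 (median 3554) in females and 2666 to 3019 (median 2846) against 2671 to 2782 (median 2702) in males, with 95% intervals of the log2 difference of -0.08 to 0.12 and -0.04 to 0.16. Ppib, a prolyl isomerase, had intervals of -0.06 to 0.23 and -0.10 to 0.18.

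Of the 3 sensors, 1 was called in females and none in males. Eif2ak3, the gene of PERK, was at 1247 to 1319 (median 1270.2) in active and 974 to 1302 (median 1071) in inactive females, ranges that overlapped (0.20 ± 0.06, adjusted p = 0.0176). In males it was at 1062 to 1213 (median 1183) against 1028 to 1123 (median 1055) (0.11 ± 0.06, adjusted p = 0.183), and the test between the sexes did not pass (-0.08 ± 0.08, adjusted p = 0.613). The female call was lost with no filter on low values (adjusted p = 0.0508) and with equal totals (adjusted p = 0.0638). Atf6 was at 2211 to 2463 (median 2229) against 1876 to 2221 (median 2066) in females and 1806 to 2335 (median 2029.9) against 1874 to 2183 (median 2007) in males. Its log2 differences were 0.14 ± 0.05, adjusted p = 0.0815 and 0.01 ± 0.05, adjusted p = 0.89. Ern1, the gene of IRE1, was the single member with a negative difference in females. It was at 801 to 927 (median 882) in active and 879.7 to 1090.3 (median 954) in inactive females (-0.13 ± 0.07, adjusted p = 0.219), and at 693 to 928 (median 803) and 735 to 901 (median 825) in males (-0.05 ± 0.07, adjusted p = 0.698). Sensor activity is set by cleavage and phosphorylation of the proteins, which mRNA levels do not show.

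Xbp1 was the transcription factor with the clearest difference between the sexes. Its mRNA is spliced by IRE1 into the form that makes the active factor, and counts per gene do not separate the spliced from the unspliced form. Xbp1 was at 5701 to 6999.6 (median 6495) in active and 3686 to 5459 (median 3801) in inactive females, which did not overlap (0.64 ± 0.09, adjusted p = 2.48e-05, 1.56-fold). In males it was at 5168 to 6999 (median 6188) and 5446 to 7632 (median 5973), with a difference of -0.04 ± 0.09, adjusted p = 0.833 and a 95% interval of -0.23 to 0.16. Atf4, the factor made when PERK slows translation, was called in males and not in females. Its levels were 3615 to 5032 (median 4127) against 2926 to 3840.2 (median 3554) in males (0.31 ± 0.08, adjusted p = 0.0125). In females they were 2574 to 3553 (median 3107) against 2345 to 2891 (median 2641) (0.24 ± 0.08, adjusted p = 0.0527), and the difference between the sexes was 0.07 ± 0.12, adjusted p = 0.787.

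Ddit3, the gene of the death-promoting factor CHOP, varied more between libraries than between periods. It was at 373 to 460.4 (median 404) against 285 to 593 (median 304) in females and 377 to 1037 (median 505) against 255 to 732 (median 402) in males, and the 95% intervals of its log2 difference, -0.27 to 0.82 and -0.09 to 1.0, included 0. Trib3, a pseudokinase induced by ATF4 and CHOP, was at 23.4 to 40.0 (median 32.8) against 21.5 to 42.8 (median 32.4) in females. In males Trib3 was at 8.73 to 45.9 (median 13.9) against 15 to 32.2 (median 27.1), with -0.55 ± 0.31, adjusted p = 0.228. At this level the intervals of Trib3, -0.63 to 0.65 in females and -1.19 to 0.09 in males, both included 0.

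Of the 8 genes of degradation, 6 were higher in active females and 3 in active males, and all 3 of these, Sel1l, Syvn1 and Selenos, belong to the membrane complex that moves chains out of the compartment. Sel1l, the adaptor of that complex, was at 4252 to 4772 (median 4539) in active and 3182 to 3909 (median 3371) in inactive females (0.40 ± 0.06, adjusted p = 1.33e-05). In males Sel1l was at 3892 to 5006 (median 4311) and 3413 to 4134 (median 3686) (0.24 ± 0.06, adjusted p = 0.00607). The female ranges of Sel1l were separate and the male ones overlapped. Syvn1, the ubiquitin ligase HRD1, differed by 0.52 ± 0.11, adjusted p = 0.00182 and 0.40 ± 0.11, adjusted p = 0.0168, and Selenos, a selenoprotein that recruits the extracting ATPase, by 0.39 ± 0.06, adjusted p = 1.67e-05 and 0.22 ± 0.06, adjusted p = 0.0123, in females and males. Edem1, a lectin that marks misfolded glycoproteins, was at 2640.1 to 3458 (median 3007) against 2126 to 2735 (median 2405) in females (0.32 ± 0.07, adjusted p = 0.0017) and at 4063 to 5268 (median 4845) against 4177 to 5049 (median 4281) in males (0.11 ± 0.07, adjusted p = 0.296).

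The derlins are membrane proteins of the same exit route. Derl2 was at 1828 to 2139 (median 2025) against 1508 to 1948 (median 1613) in females (0.29 ± 0.06, adjusted p = 0.0012) and at 2404 to 3039 (median 2601) against 2214 to 2483 (median 2339) in males (0.17 ± 0.06, adjusted p = 0.0555). Derl1 was at 2758 to 3066 (median 3019) against 2581 to 2930.5 (median 2802) in females and 3828 to 4884 (median 4422) against 3766 to 4322 (median 3909) in males, and did not pass in either (0.11 ± 0.05, adjusted p = 0.176 in females and 0.13 ± 0.05, adjusted p = 0.0964 in males). Derl3, a low-abundance derlin, differed by 1.16 ± 0.39, adjusted p = 0.042 in females, a call that held in 18 of 24 fits without 1 library and was lost with edgeR (adjusted p = 0.0568), with no filter on low values (0.0704), with a plain variance prior (0.0583) and with only the groups compared (0.0747). It is also known as a plasma cell gene. The 7 other plasma cell markers summed to 941 to 4022 in active and 905 to 3000.3 in inactive females, 0 of the 5 that could be tested was called for the period by limma in either sex, and their part in the difference of Derl3 was not tested. Herpud1, a stress-induced scaffold of the exit complex, did not pass in either sex (0.11 ± 0.12, adjusted p = 0.615 in females and -0.06 ± 0.12, adjusted p = 0.798 in males).

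Sec61a1, the pore of the translocation channel, was at 2317 to 2541 (median 2380.1) in active and 1756 to 2035 (median 1822) in inactive females, separate ranges with 0.36 ± 0.05, adjusted p = 1.45e-06. In males Sec61a1 was at 2353 to 2580.1 (median 2478) and 2150.0 to 2463 (median 2230.2) (0.12 ± 0.05, adjusted p = 0.0646). Its partner Sec61b was called in males (0.26 ± 0.08, adjusted p = 0.0251, and 0.0532 with no filter on low values) and not in females (0.21 ± 0.08, adjusted p = 0.0768). Ssr1, a subunit of the translocon-associated complex, was called in females (0.16 ± 0.05, adjusted p = 0.0203) and not in males (0.07 ± 0.05, adjusted p = 0.338).

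The log2 difference, active minus inactive and with its sign, was lower in males than in females for 29 of the 35 members. For Trib3 among them the male difference was the larger in size, -0.55 against 0.01. The test between the sexes passed for 6 members, all lower in males, against 1.30% of all genes. Xbp1 led these with a male minus female difference of -0.67 ± 0.13, adjusted p = 0.0078, and was followed by Canx (-0.33 ± 0.08, adjusted p = 0.0216), Dnajc3 (-0.40 ± 0.10, adjusted p = 0.0244), Pdia3 (-0.44 ± 0.11, adjusted p = 0.0244), Sec61a1 (-0.24 ± 0.06, adjusted p = 0.0419) and Hsp90b1 (-0.59 ± 0.16, adjusted p = 0.044). No member passed in the other direction, in which 1.41% of all genes did, none did so at an unadjusted p under 0.05, and edgeR and DESeq2 also gave 0. Xbp1, Canx and Pdia3 were called in all 24 fits that left out 1 library, Dnajc3 in 23, Sec61a1 in 10 and Hsp90b1 in 7. With a plain variance prior in limma only Xbp1 and Canx passed, with adjusted p = 0.0604 for Pdia3, 0.0615 for Dnajc3, 0.0542 for Sec61a1 and 0.0662 for Hsp90b1. With no filter on low values the calls of Pdia3 (adjusted p = 0.083), Sec61a1 (0.105) and Hsp90b1 (0.112) were lost. The number called was 3 without female inactive replicate 3 and 11 without female inactive replicate 6 or without male active replicate 2. For the members with the largest differences the test did not pass, with -0.68 ± 0.23, adjusted p = 0.113 for Hspa5, -0.78 ± 0.32, adjusted p = 0.185 for Sdf2l1 and -0.26 ± 0.27, adjusted p = 0.651 for Creld2. The interval for Creld2, -0.83 to 0.31, spanned 0.

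Single libraries stood apart across many members at once. As the mean log2 deviation of the 35 members from their means over all libraries, active females lay between 0.11 and 0.34 and inactive females between -0.45 and -0.02, without overlap. Female inactive replicate 6 was the highest of its group at -0.02, with the next at -0.21, and it was the highest of its group for 24 of the 35 members. In active males, replicates 2 and 6 were at 0.44 and 0.39 and the other 4 between -0.07 and 0.12, against -0.18 to -0.01 in inactive males. The same libraries were high in 16 cytosolic heat shock genes, a separate folding system outside the compartment, for which female inactive replicate 6 was at -0.13 (the others at -0.71 to -0.52) and male active replicates 2 and 6 were at 1.15 and 1.01 (the others at 0.11 to 0.61). Female inactive replicate 6 and male active replicates 2 and 6 held 32.4 M, 32.7 M and 34.3 M recovered reads, and male active replicate 2 had the fewest reads of its group and the lowest size factor of the 24 libraries, 0.828. Male inactive replicate 1 was the highest of its group for 13 members and the lowest for 5. It was also the highest of its group in the heat shock genes, at 0.68 (the others at -0.58 to 0.29). Female inactive replicate 6 had the lowest Arntl of its group, 36.2 (the others at 63.8 to 164). The part of the heat shock genes, of Arntl or of depth in the members' values was not tested.

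The male counts were recomputed without replicates 2 and 6 of the active males, the highest of their group in mean deviation. Both were left out together, a choice made after seeing their values. The share of all genes higher in active males then fell from 8.43% to 3.64%. Of the members, 5 were higher in place of 15. These 5 were Hyou1 (0.62 ± 0.11, adjusted p = 0.00139), Creld2 (0.80 ± 0.18, adjusted p = 0.0114), Sdf2l1 (0.66 ± 0.17, adjusted p = 0.0165), Sel1l (0.22 ± 0.06, adjusted p = 0.0283) and Hspa5 (0.57 ± 0.16, adjusted p = 0.0435). Trib3 was then lower in active males (-1.03 ± 0.28, adjusted p = 0.0238). The test between the sexes then called 12 members, again all lower in males, against 0.906% of all genes. The median difference of the members in males was 0.10 without these libraries. Leaving out the highest libraries lowers the male difference and the male minus female difference by construction. These counts therefore do not test the male result. In females the count was 23 to 27 over all fits that left out 1 library.

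**Figure D4:**
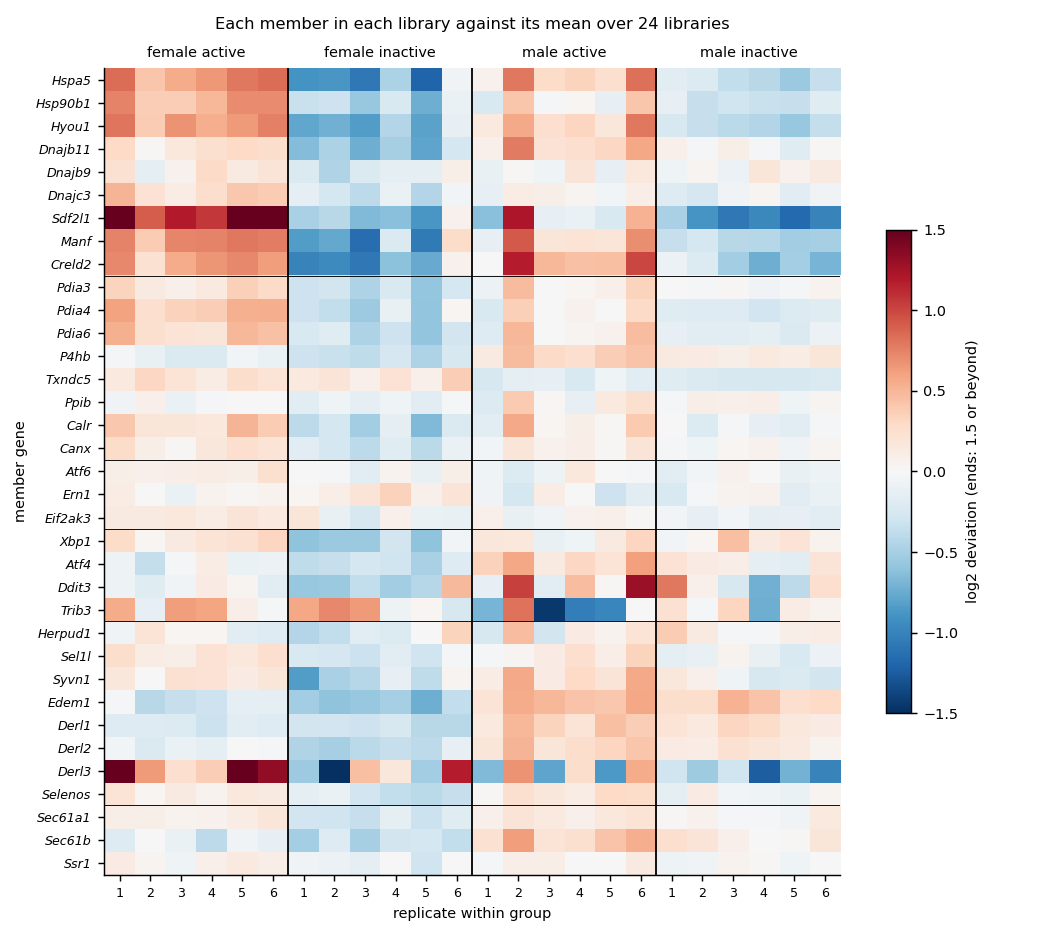
Log2 deviation of each member (rows, by role) in each of the 24 libraries (columns, by group and replicate) from its mean over all libraries, with colours limited at 1.5 in either direction. Active females are red and inactive females blue across the chaperones, female inactive replicate 6 is paler than its group, and male active replicates 2 and 6 are redder than theirs.

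The members with an ERSE in the promoter were all called in females, though the call of Derl3 was lost in the settings named above. Of the 9, 9 were higher in active females and 5 in active males, with median log2 differences of 0.69 and 0.35. Of the 21 members with a promoter and no match, 13 were higher in females and 8 in males, with medians of 0.27 and 0.14. Sdf2l1, which had the largest female difference at 1.82, was among these 21. Of the 5 members without a promoter window, 3 were higher in females and 2 in males. Hyou1 and Manf, at 1.25 and 1.32 in females, were among these 5. Outside the members, 28 genes had an ERSE match and 11 of them could be tested. In females 3 of the 11 were higher, the RNA-binding protein gene Hnrnpa3 (0.36 ± 0.05, adjusted p = 3.98e-06), the acyltransferase gene Acnat2 (1.33 ± 0.21, adjusted p = 0.000146) and Alg12 (0.39 ± 0.09, adjusted p = 0.0043), and in males the latter pair. Of 12055 other tested genes with a promoter and no match, 8.64% were higher in females and 9.19% in males. Herpud1 and Txndc5, which carry ERSE-II and the UPRE core shown or named above, were not called in either sex, and Dnajb11, with ERSE-II after its start, was called in both.

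In the wider pathway the members were compared with 6 other lists. In active females 54 of their 174 tested genes were higher and 7 lower, against 7.97% and 6.98% of all genes. In active males 39 were higher and 8 lower, against 8.43% and 6.95%. The median log2 differences of the 174 genes were 0.10 in females and 0.07 in males. The same shares of all genes apply to each list below and to the heat shock genes. Some counts were near these shares, such as 3 higher and 1 lower of 25 other regulators in males. Of 31 genes of the translocation channel, signal peptidase and oligosaccharyltransferase, which attaches sugar chains, 13 were higher in females and 12 in males. The oligosaccharyltransferase subunit Ostc was at 1515 ± 86.9 in active and 1001 ± 94.3 in inactive females (mean ± SD, n = 6 libraries), a difference of 0.60 ± 0.08, adjusted p = 3.77e-06 by limma, and differed by 0.38 ± 0.08, adjusted p = 0.00178 in males. Its fellow subunits Magt1 and Stt3b differed in females by 0.50 ± 0.05, adjusted p = 7.41e-08 and 0.32 ± 0.05, adjusted p = 2.79e-05, and of these Stt3b passed in males (0.19 ± 0.05, adjusted p = 0.0106). The signal recognition particle gene Srp14 and the signal peptidase gene Sec11a were called in males (0.23 ± 0.05, adjusted p = 0.00398 and 0.30 ± 0.07, adjusted p = 0.00434) and not in females (0.05 ± 0.05, adjusted p = 0.62 and 0.17 ± 0.07, adjusted p = 0.116).

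Of 28 genes of vesicle traffic between the endoplasmic reticulum and the Golgi, 14 were higher in active females, and 8 were higher and 4 lower in active males. The vesicle tether Uso1 differed by 0.51 ± 0.05, adjusted p = 9.76e-09 in females and 0.20 ± 0.05, adjusted p = 0.00529 in males. The coat genes Sec31a, Copg1 and Sec13 were higher in both sexes, with 0.28 ± 0.05, adjusted p = 4.39e-05, 0.26 ± 0.04, adjusted p = 6.81e-05 and 0.24 ± 0.06, adjusted p = 0.00267 in females and 0.24 ± 0.05, adjusted p = 0.00057, 0.25 ± 0.04, adjusted p = 0.000223 and 0.36 ± 0.06, adjusted p = 6.06e-05 in males. Of 35 other folding enzymes and co-chaperones, 6 were higher and 4 lower in females and 6 higher and 1 lower in males. Uggt1, which re-tags unfinished glycoproteins for calnexin, differed by 0.52 ± 0.05, adjusted p = 1.38e-08 in females and 0.14 ± 0.05, adjusted p = 0.0532 in males. The isomerases Pdia5 and Txndc11 were higher in both sexes (0.50 ± 0.09, adjusted p = 0.000149 and 0.38 ± 0.07, adjusted p = 0.000142 in females, 0.46 ± 0.09, adjusted p = 0.000751 and 0.22 ± 0.07, adjusted p = 0.0278 in males). Fkbp9, a prolyl isomerase, and Erp29, a lumenal folding factor, were called in males (0.22 ± 0.04, adjusted p = 0.000745 and 0.38 ± 0.10, adjusted p = 0.0093) and not in females (-0.00 ± 0.04, adjusted p = 0.978 and 0.18 ± 0.10, adjusted p = 0.241).

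Of 26 other genes of degradation, 6 were higher in females, and 6 were higher and 2 lower in males. Ubxn4, which anchors the extracting ATPase, and Ube2g2, a ubiquitin-conjugating enzyme, were higher in both sexes (0.34 ± 0.05, adjusted p = 2.34e-05 and 0.42 ± 0.12, adjusted p = 0.0113 in females, 0.22 ± 0.05, adjusted p = 0.00537 and 0.50 ± 0.12, adjusted p = 0.00416 in males). Rad23b and Dnajb14 were called in females (0.20 ± 0.04, adjusted p = 0.00153 and 0.26 ± 0.06, adjusted p = 0.00218) and not in males (0.12 ± 0.04, adjusted p = 0.068 and 0.02 ± 0.06, adjusted p = 0.864). The ubiquitin ligase gene March6 was lower in active males (-0.33 ± 0.06, adjusted p = 0.000404) and did not pass in females (-0.13 ± 0.06, adjusted p = 0.158). Of 30 targets of ATF4 and CHOP, 11 were higher and 2 lower in females and 4 higher in males. Stc2, a secreted glycoprotein hormone, was at 375 ± 51.9 in active and 189 ± 44.8 in inactive females (mean ± SD, n = 6 libraries), with 1.01 ± 0.15, adjusted p = 1.58e-05 by limma, and differed by 0.49 ± 0.15, adjusted p = 0.0253 in males. The tRNA synthetase genes Aars and Wars were higher in both sexes, with 0.37 ± 0.06, adjusted p = 4.99e-05 and 0.36 ± 0.06, adjusted p = 0.000209 in females and 0.18 ± 0.06, adjusted p = 0.0432 and 0.19 ± 0.06, adjusted p = 0.0384 in males. Nars, another synthetase gene, was called in females (0.27 ± 0.04, adjusted p = 1.45e-05) and not in males (0.02 ± 0.04, adjusted p = 0.802), and Shmt2, a mitochondrial enzyme of serine use, in males (0.26 ± 0.07, adjusted p = 0.00772) and not in females (0.02 ± 0.07, adjusted p = 0.897).

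Among 25 other regulators, 4 were higher and 1 lower in females, and 3 higher and 1 lower in males. Map3k5, a kinase downstream of IRE1, differed by 0.55 ± 0.07, adjusted p = 2.04e-06 in females and 0.79 ± 0.07, adjusted p = 1.01e-08 in males. Atp2a2, the pump that fills the compartment with calcium, differed by 0.50 ± 0.07, adjusted p = 1.12e-05 and 0.30 ± 0.07, adjusted p = 0.00592, and Atf6b, a relative of Atf6, by 0.21 ± 0.06, adjusted p = 0.0166 and 0.32 ± 0.06, adjusted p = 0.000767. Eif2s1, whose product PERK phosphorylates, was called in females (0.24 ± 0.06, adjusted p = 0.0042) and not in males (0.08 ± 0.06, adjusted p = 0.343). In the cytosolic heat shock list, 8 of 16 genes were higher in active females and 7 in active males, among them Hsp90aa1 (0.96 ± 0.15, adjusted p = 0.000157 and 0.47 ± 0.15, adjusted p = 0.042) and Stip1 (0.74 ± 0.12, adjusted p = 0.000104 and 0.61 ± 0.12, adjusted p = 0.00125). Of the genes of these lists named as called in 1 sex only, Uggt1, Magt1, Nars and Fkbp9 passed the test between the sexes (-0.38 ± 0.07, adjusted p = 0.00539, -0.39 ± 0.08, adjusted p = 0.00684, -0.25 ± 0.06, adjusted p = 0.0145 and 0.22 ± 0.06, adjusted p = 0.0379), and the others did not. The part of the cytosolic heat shock genes in the members' differences was not tested.

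Between the sexes, the members differed in both directions. In the active period 6 members were higher and 9 lower in males, against 30.1% and 30.5% of all genes, and in the inactive period 16 were higher and 2 lower, against 27.9% and 27.8%. The share of members higher in inactive males was thus above that of all genes, and the other 3 shares were below it. The median log2 difference of the members, male minus female, was -0.09 in the active and 0.25 in the inactive period, against -0.05 and -0.04 over all genes. When libraries were rescaled to equal totals, the median of all genes moved to -0.32 in both periods, 4 members were higher and 24 lower in the active period, and 7 were higher and 9 lower in the inactive period. Relative to the median of all genes, 15 members stood above it in the active and 29 in the inactive period with the deposited scaling, with TMM factors and with equal totals. Each scaling moves all genes of a library alike, so these counts could hardly change and do not test the scaling. Directions between the sexes are therefore given relative to the deposited scaling. All 6 markers of podocytes and endothelium were lower in males in both periods, with sums of 11768 to 16731 in males and 20038 to 26005 in females. The 8 proximal tubule markers summed to 297653 to 366695 in males and 227334 to 296711 in females, with 5 higher and 3 lower in males in the active period and 4 and 4 in the inactive period. The 5 markers of the thick ascending limb and distal tubule summed to 116638 to 141915 in males and 156433 to 197051 in females, with 4 lower in males in the active and 3 in the inactive period and none higher. The part of these markers in the members' sex differences was not tested.

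Higher in males in both periods were P4hb, Atf4, Edem1, Derl1, Derl2 and Sec61b (23.6% of all genes were higher in both). Edem1 led them, with 0.68 ± 0.07, adjusted p = 8.96e-10 in the active and 0.88 ± 0.07, adjusted p = 4.31e-12 in the inactive period, and every male library lay above every female library. Derl1 differed by 0.55 ± 0.05, adjusted p = 4.63e-10 and 0.53 ± 0.05, adjusted p = 1.35e-09, and Derl2 by 0.40 ± 0.06, adjusted p = 1.58e-06 and 0.51 ± 0.06, adjusted p = 2.14e-08. With equal totals the calls of Derl2 in the active period and of Atf4 in both periods did not pass. P4hb was 1.36-fold higher in males in the active and 1.38-fold in the inactive period (0.45 ± 0.05, adjusted p = 1.35e-08 and 0.46 ± 0.05, adjusted p = 9.34e-09). Txndc5 was the single member lower in males in both periods (21.3% of all genes), by -0.36 ± 0.05, adjusted p = 1.31e-07 and -0.40 ± 0.05, adjusted p = 2.85e-08. The largest negative difference was that of Sdf2l1 in the active period, -1.21 ± 0.23, adjusted p = 7.93e-05, where its inactive value was -0.43 ± 0.23, adjusted p = 0.115. In the inactive period Xbp1 was higher in males (0.58 ± 0.09, adjusted p = 8.86e-06), and in the active period it was not called (-0.10 ± 0.09, adjusted p = 0.375). Among the sensors, Ern1 was lower in inactive males (-0.22 ± 0.07, adjusted p = 0.00818), and Atf6 and Eif2ak3 were lower in active males (-0.15 ± 0.05, adjusted p = 0.0165 and -0.14 ± 0.06, adjusted p = 0.0408). Without male active replicates 2 and 6 neither passed, with adjusted p = 0.0943 for Atf6 and 0.156 for Eif2ak3. The call of Eif2ak3 was also lost with no filter on low values (adjusted p = 0.1004) and held in 16 of the 24 fits without 1 library. Trib3 was lower in active males (-0.85 ± 0.31, adjusted p = 0.0182), where replicates 2 and 6 were its highest libraries at 45.9 and 25.4, and this call was lost with edgeR (-0.70, adjusted p = 0.0594).

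**Figure D5:**
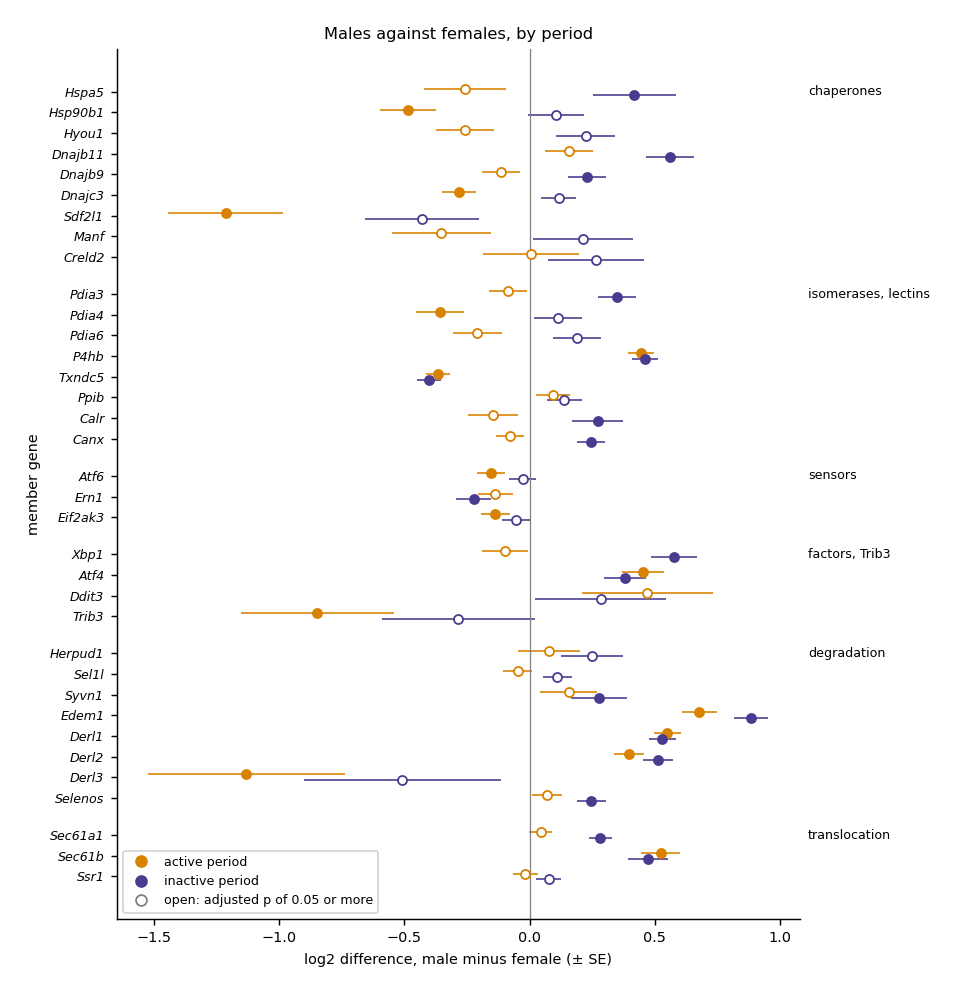
Log2 difference between males and females ± SE for each of the 35 members by role (orange active, purple inactive period; filled circles called at an adjusted p under 0.05 by limma, open circles not). For most chaperones and isomerases the purple point lies to the right of the orange one, while Edem1, Derl1, Derl2, P4hb and Sec61b lie to the right of 0 in both periods.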

How the data were processed

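Kidney poly A RNA of 24 libraries was measured in 4 groups of 6, grouped by the labelled sex and period. The deposited signal holds counts per gene scaled by the authors with a size factor for each library, as its values show. The submitters' processing notes list the tools featureCounts, DESeq2 1.28.1, Trim Galore 0.6.10 and Subread 2.0.6 and the genome GRCm39. No source used here gives their roles, the annotation or the strand setting. Symbols and exon lengths came from a GRCm38 annotation. Whole reads were recovered by dividing by each library's step (all values whole within 0.05). Factors lay between 0.828 and 1.28. Counting error limits precision for Trib3 and Derl3 in particular.

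Values of log2(normalized count + 1) of 17333 genes with a mean of at least 10 were fitted with limma 3.58.1 in R 4.3.3, with trended and robust prior, 4 group means and 20 residual degrees of freedom. Differences are ± SE on this scale, which understates changes of low genes, and folds are taken from it. P-values were adjusted over all 17333 genes by Benjamini and Hochberg in each of 5 contrasts, and genes under 0.05 were called. The main limma fit was tested on simulated data for every contrast except sex in the inactive period. The edgeR and DESeq2 fits and the other settings were not tested in this way. Values by library group are given for the sensors, factors and Trib3, the 6 members with the smallest p per period contrast, and the 4 leading members of each other contrast. Of each other pathway list, the 3 genes with the smallest p per period contrast are named. Members and lists were chosen with earlier results of these data known. Alternatives were pseudocounts of 0.5 and 5, no filter, TMM factors, equal totals, only the groups compared, a plain prior, edgeR 4.0.16 and DESeq2 1.42.0 on recovered reads, each library left out, a block by title number, and, added after seeing the data, 2 male libraries left out together. Promoter windows are from RefSeq, build GRCm38.p6. Protein sequences and splice forms were not analysed here.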

Additional observations from a re-analysis of the deposited data

Results flagged for a closer look

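In 8 of 140 groups of 6 libraries checked (35 members in 4 groups), 1 library lay far from the other 5 of its group, where chance marks about 5% of groups. High libraries were male inactive replicate 1 for Sdf2l1 at 228 normalized counts and for Herpud1 at 9395, female inactive replicate 6 for Creld2 at 1207 and for Ddit3 at 593, and female active replicate 6 for Atf6 at 2463. Low libraries were female active replicate 2 for Manf at 2498, male inactive replicate 4 for Pdia4 at 3534, and female active replicate 4 for Derl1 at 2758.

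For 6 members the difference between the periods was not the same in the sexes by the interaction test of limma (adjusted p between 0.0078 and 0.044). The male change minus the female change was -0.67 for Xbp1, -0.59 for Hsp90b1, -0.44 for Pdia3, -0.40 for Dnajc3, -0.33 for Canx and -0.24 for Sec61a1.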

How the results depend on the processing

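Each count of members called was recomputed under 10 planned settings beside the 24 that leave out 1 library, and 1 setting added after seeing the data. Leaving out 1 library gave members higher in the active period of 23 to 27 in females and 10 to 19 in males, members lower in the interaction of 3 to 11, males against females in the active period of 6 to 7 higher and 7 to 12 lower, and in the inactive period of 13 to 21 higher and 2 to 3 lower. The number lower in the interaction was 3 with no filter on low values and 2 with a plain variance prior, against 6. With male active libraries 2 and 6 left out, 5 members were higher and 1 lower in active males, against 15 and 0, and 12 were lower in the interaction. These libraries were the highest of their group, so shifts in these directions follow from the choice. Rescaling to equal totals gave 24 lower in males in the active period (against 9). In the inactive period it gave 7 higher (against 16) and 9 lower (against 2). The sign of the sex difference turned for 7 members in the active and 16 in the inactive period. Among members called with the deposited scaling, it turned in the inactive period for Dnajb9 (-0.0515), Calr (-0.00787), Canx (-0.0334), Syvn1 (-0.00124) and Selenos (-0.0333). Of 79 calls of single members, all were kept with pseudocounts of 0.5 and 5 and TMM factors, while 13 did not pass with no filter, 8 with a plain prior, 4 with edgeR, 1 with DESeq2, 4 of the 73 outside the interaction with only the groups compared, 7 with equal totals beside the 5 that turned, and 12 with the 2 male libraries left out. For the interaction no fit of only the groups compared exists, since it uses all 4. Taking the title number shared by a male and a female library as a replicate block kept all 79 calls, at a consensus correlation of 0.0123, with 25 members higher in females, 15 in males and 6 lower in the interaction. The labels do not say that the number pairs libraries, and same-numbered libraries correlated at -0.10 to 0.12. In 4 of 12 pairs the female library correlated best with its own number among the 6 male libraries of that period. This count was not tested against chance. Differences of Trib3 and Derl3, at 13.0 and 13.3 normalized counts per kb, are limited by depth and spread.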
